A study of Bos taurus with 8 samples.

Results

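The urea cycle and amino acid breakdown enzymes examined here are 9 genes of the liver, chosen by name among the 19994 protein-coding genes of a table of 24616 genes, and all 9 names were found. CPS1, OTC, ASS1, ASL and ARG1 encode the enzymes of the urea cycle. TAT and HPD act in tyrosine breakdown, TDO2 in tryptophan breakdown and SDS in serine breakdown. Their reads come from small RNA libraries of the liver of 8 Holstein Friesian cows, 1 library per cow, slaughtered approximately 14 days postpartum. The 4 cows in mild negative energy balance (MNEB, libraries 2M, 3M, 4M and 5M) ate grass silage freely with 8 kg/day of concentrate (21% crude protein) and gave milk 1 time per day. The 4 cows in severe negative energy balance (SNEB, libraries 7S, 8S, 9S and 10S) had 4 kg/day of concentrate beside 25 kg/day of silage and gave milk 3 times per day. The groups thus differed in feed and in milking at once, and the effects of feed and of milking cannot be told apart. The title of library 2M places it among the mild cows, as does the study's key to the library letters, while its treatment label reads severe and the design text counts 5 severe and 3 mild cows. It was analysed as MNEB, and results that turn on it are also given with 2M left out or placed in SNEB.

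The liver removes the nitrogen of amino acids as urea. In the mitochondria of hepatocytes, CPS1 makes carbamoyl phosphate from ammonia and OTC joins it to ornithine as citrulline. In the cytosol ASS1 and ASL turn citrulline into arginine, from which ARG1 splits off urea and returns ornithine. The carbon skeletons left by enzymes such as TAT and SDS feed gluconeogenesis and ketone body synthesis. In rodents TAT, TDO2 and SDS are textbook targets of glucocorticoid hormones and glucagon, which act in fasting.

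A small RNA library holds short pieces of messenger RNA beside its miRNAs. Of 21617227 to 33963761 gene reads per library, 58887 to 280802 came from protein-coding genes, which is 0.191% to 0.928% in MNEB and 0.519% to 0.686% in SNEB. Levels are given as CPM, the reads of a gene for every 1000000 protein-coding reads of the same library. These are reads of fragments, not of whole messenger RNAs, and in bulk liver fewer cells of a type and less RNA per cell cannot be told apart. Nor can a change in messenger RNA level be told apart from a change in how it is fragmented. The 9 genes had 3.88 (SDS) to 479 (CPS1) reads per library on average. Levels were not compared between genes, since no transcript lengths were used. Hepatocyte markers such as ALB, APOB and FGB were detected in every library, and all 8 of the list passed the filter on low counts. Together they made up 51350 to 122431 CPM in MNEB and 62874 to 103813 CPM in SNEB, where FGB gave 86022 CPM of the highest sum, in 9S. Of the 8, 6 had a log2 fold change below 0 (median -0.33) and 0 passed the test described next. APOA1 and FGB lay above 0, at 0.94 and 0.91. TF stood at 10056 to 19615 CPM in MNEB and 4630 to 9638 CPM in SNEB without overlap, as was the case in that direction for 2.4% of all genes tested. DESeq2 called TF lower, as it did 43 of the 2415 genes tested. ALB stood at 14698 to 55170 CPM in MNEB and 5537 to 25273 CPM in SNEB. The libraries are replicates by design and none was a copy of another, since the counts of the 12 pairs within groups differed by more than sampling noise (chi-square over its degrees of freedom 3.36 or more).

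SNEB was compared with MNEB to ask whether the stronger energy deficit went with other levels of these enzymes. TAT, which takes the first step of tyrosine breakdown, stood 4.38-fold higher in SNEB and ARG1, the last enzyme of the urea cycle, 2.62-fold higher, but neither passed the test across all genes. CPS1, OTC, ASS1, ASL, HPD and TDO2 differed by less than the spread between cows, with fold changes of 0.902 to 1.21. In edgeR's quasi-likelihood test on the counts, scaled by TMM and adjusted by Benjamini-Hochberg over the 2415 protein-coding genes whose mean reached 10 reads, 0 of the 8 members tested had an adjusted p under 0.05. In the same test 3 of the 2415 genes passed (0.124%), 2 of them higher in SNEB (0.0828%). With single libraries left out, the genes that passed numbered 112 without 5M, 15 without 2M and 1 without 7S, and the members 0 in each case. At an unadjusted p under 0.05 the members numbered 2 of 8, TAT and ARG1, both higher in SNEB, against 6.46% of all genes tested that were higher and 14.5% in either direction. The median log2 fold change was 0.18 over the 8 members and -0.01 over all genes tested. The members were chosen with earlier results of these data known, so these shares and medians are a description only. DESeq2 and edgeR's exact test each called 1 member, TAT. SDS had too few reads for the test.

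**Figure D1:**
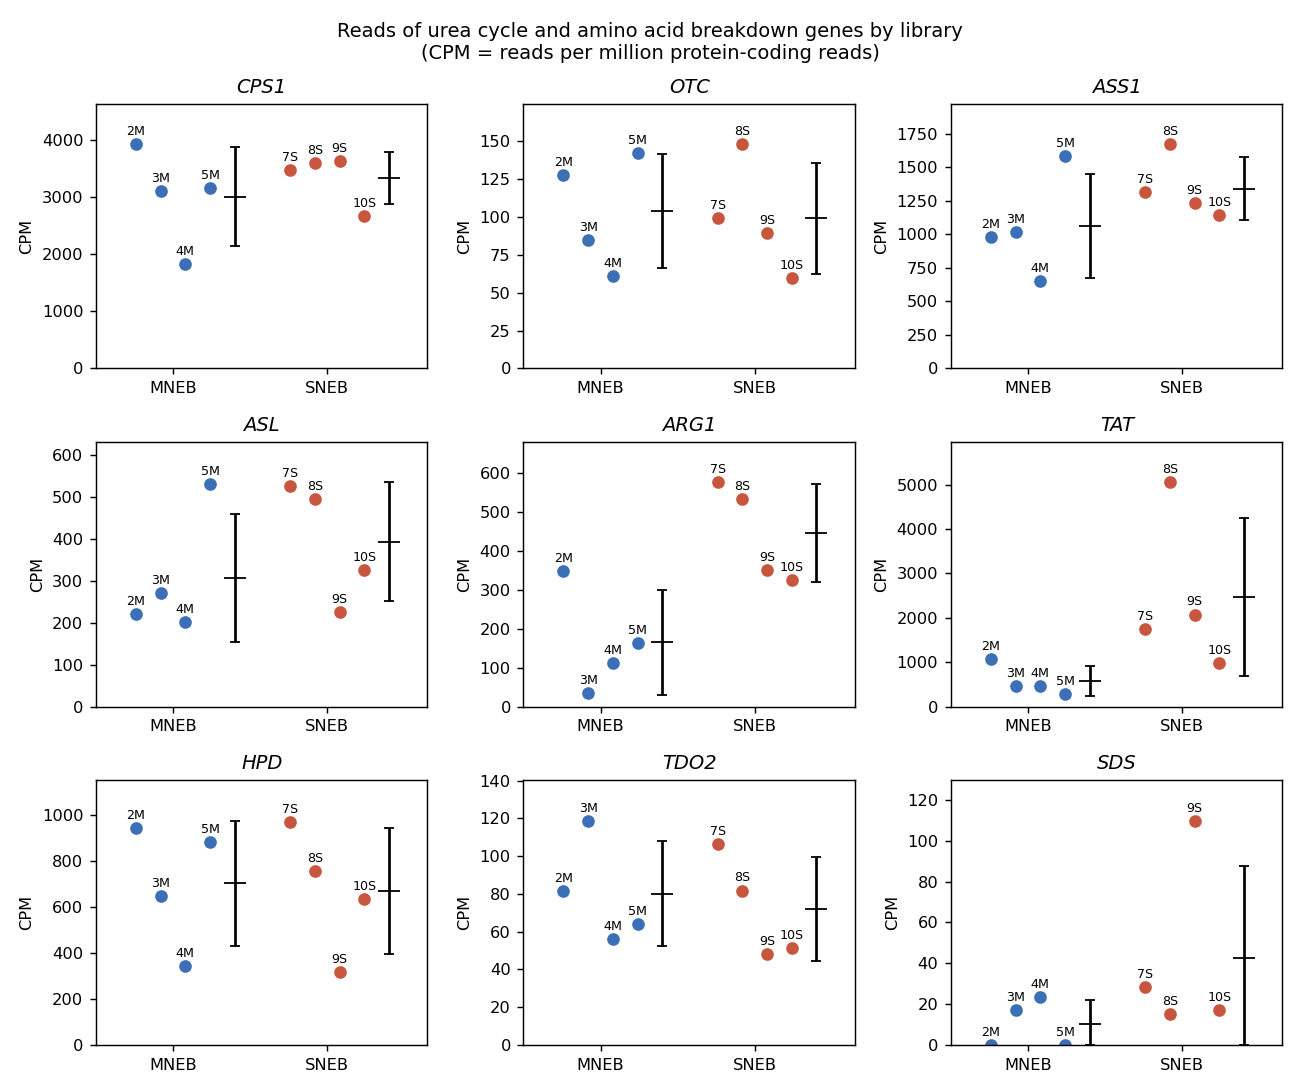
Each panel shows 1 gene, with the CPM of each library, scaled to its protein-coding reads, on a linear axis from 0. Blue points are MNEB and red points SNEB libraries, and the bar beside them gives the mean and SD of the 4 libraries, with the lower end drawn no lower than 0. TAT and ARG1 reach their highest MNEB value in library 2M, at 1069.6 and 349 CPM, and their lowest SNEB value in library 10S, at 985 and 326 CPM.

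CPS1 (ENSBTAG00000016662), which commits ammonia to the urea cycle, stood at 3929.6, 3108, 1833 and 3166 CPM in 2M, 3M, 4M and 5M. It stood at 3468, 3594, 3627 and 2664 CPM in 7S, 8S, 9S and 10S. The SNEB libraries lay within the range of the MNEB libraries, whose spread was wider. The means were 3338 ± 455 CPM in SNEB and 3009 ± 869 CPM in MNEB (SD, n = 4 each), and the fold change was 1.09 (95% interval 0.641 to 1.87, adjusted p = 0.919 in edgeR's quasi-likelihood test). A change of CPS1 by more than 1.87-fold upwards thus lies outside the interval.

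OTC (ENSBTAG00000001488), which makes citrulline, had few reads, from 5 in 3M to 40 in 5M. Its level was 60.8 to 142 CPM in MNEB and 60.0 to 148 CPM in SNEB, so the groups covered almost the same range. The log2 fold change was -0.12 (SE 0.43, adjusted p = 0.938 in edgeR's quasi-likelihood test), with a 95% interval of the fold from 0.487 to 1.74. The sign of so small a value depends on the libraries and on the scaling. It was 0.25 without library 5M and 0.067 on the RPM of all gene reads.

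ASS1 (ENSBTAG00000020747), which joins citrulline to aspartate, stood at 977, 1019, 654 and 1585 CPM in 2M, 3M, 4M and 5M. In SNEB it stood at 1315, 1672, 1229.6 and 1139 CPM in 7S, 8S, 9S and 10S. Every SNEB library lay above the MNEB libraries 2M, 3M and 4M, and 5M lay above 3 of the 4 SNEB libraries. Its log2 fold change was 0.28 (SE 0.37, adjusted p = 0.796 in edgeR's quasi-likelihood test) and 0.64 without 5M (adjusted p = 0.259).

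ASL (ENSBTAG00000015314), which releases arginine, ranged from 201 to 531 CPM in MNEB and from 227 to 526 CPM in SNEB, again with 5M as the highest MNEB library. Its log2 fold change was 0.24 (SE 0.41, adjusted p = 0.843 in edgeR's quasi-likelihood test). Without 5M it was 0.80, and with library 2M placed in SNEB it was -0.045. RefSeq (assembly ARS-UCD2.0) places CRCP across ASL, and how reads of overlapping genes were assigned here is uncertain.

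ARG1 (ENSBTAG00000012403), the arginase of the liver, stood at 349, 34.0, 112 and 164 CPM in 2M, 3M, 4M and 5M. In SNEB it stood at 576, 532, 350.3 and 326 CPM in 7S, 8S, 9S and 10S. The MNEB library 2M lay within the SNEB range, above 10S, and the other MNEB libraries lay below every SNEB library. With 2M left out, 8.28% of the genes tested were higher in SNEB without overlap. The value of 3M rests on 2 reads, whose exact Poisson interval, for counting error only, allows 4.11 to 123 CPM. The means were 446 ± 126 CPM in SNEB and 165 ± 134 CPM in MNEB (SD, n = 4 each).

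The fold change of ARG1 was 2.62 (95% interval 1.29 to 5.31, unadjusted p = 0.0111, adjusted p = 0.186 in edgeR's quasi-likelihood test). It was above 1 in all 22 alternatives that held the gene, and passed in 0 of them, with adjusted p of 0.0733 to 0.474. The upper end came from the permutation fits, in which no gene could pass. Without library 2M the log2 fold change was 1.87 (adjusted p = 0.0800), and with 2M placed in SNEB it was 1.80 (adjusted p = 0.0733). RefSeq places a lncRNA across ARG1, so reads of the pair are uncertain as well.

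Within the urea cycle the reads of ARG1 can be set against those of CPS1 in the same library, which needs no scaling. There were 0.0109 to 0.0888 ARG1 reads per CPS1 read in MNEB and 0.0966 to 0.166 in SNEB, with no overlap of the groups. Of the other genes tested, 2.32% had a ratio to CPS1 that was higher in SNEB without overlap, and 4.52% one that did not overlap in either direction. With other genes in place of CPS1, the ratio of ARG1 was higher without overlap for 26.2% of 2341 genes. ASS1 gave 0.249 to 0.501 reads per CPS1 read in MNEB and 0.339 to 0.465 in SNEB, and OTC 0.0273 to 0.0450 and 0.0225 to 0.0413, so both ratios overlapped. ARG1 reads per ASL read overlapped too, at 0.125 to 1.58 in MNEB and 1.00 to 1.55 in SNEB. These ratios were chosen after the values had been seen and are given without a test.

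TAT (ENSBTAG00000002214), tyrosine aminotransferase, stood at 1069.6, 475, 472 and 274 CPM in 2M, 3M, 4M and 5M. In SNEB it stood at 1755, 5051, 2074 and 985 CPM in 7S, 8S, 9S and 10S. Library 8S was far above the rest, and the groups overlapped only in that 2M lay above 10S. The means were 2467 ± 1783 CPM in SNEB and 573 ± 344 CPM in MNEB (SD, n = 4 each).

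The fold change of TAT was 4.38 (95% interval 2.00 to 9.62, unadjusted p = 0.00123, adjusted p = 0.0870 in edgeR's quasi-likelihood test), with place 34 of 2415 by p. RefSeq places an snRNA across TAT, so some reads are uncertain. On the log2 scale the 2.13 became 1.52 without library 8S (adjusted p = 0.258) and 2.57 without library 2M (adjusted p = 0.0558). With 2M placed in SNEB it was 2.39 (adjusted p = 0.0691). TAT was higher in SNEB in all 23 alternatives and passed in 5 of them. These were DESeq2 (adjusted p = 0.00720), edgeR's exact test (0.0114), the RPM of all gene reads without scaling (0.0386), a minimum mean of 1 read (0.0141) and no filter (0.000923). These alternatives also called more of all genes. DESeq2 called 3.02% of them, 1.24% higher in SNEB, and edgeR's exact test 2.77%, 1.2% higher. On RPM 2.19% passed, 0.414% higher, with a minimum mean of 1 read 0.944%, 0.311% higher, and with no filter 1.07%, 0.306% higher. By the two-sided exact permutation test over 70 assignments of the libraries, TAT and ARG1 each had p = 0.0571, where the smallest p possible is 0.0286, and adjusted p = 0.474 over all genes tested. Genes at that smallest p had an adjusted p of 0.401 in the permutation test, so no gene could pass it.

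**Figure D2:**
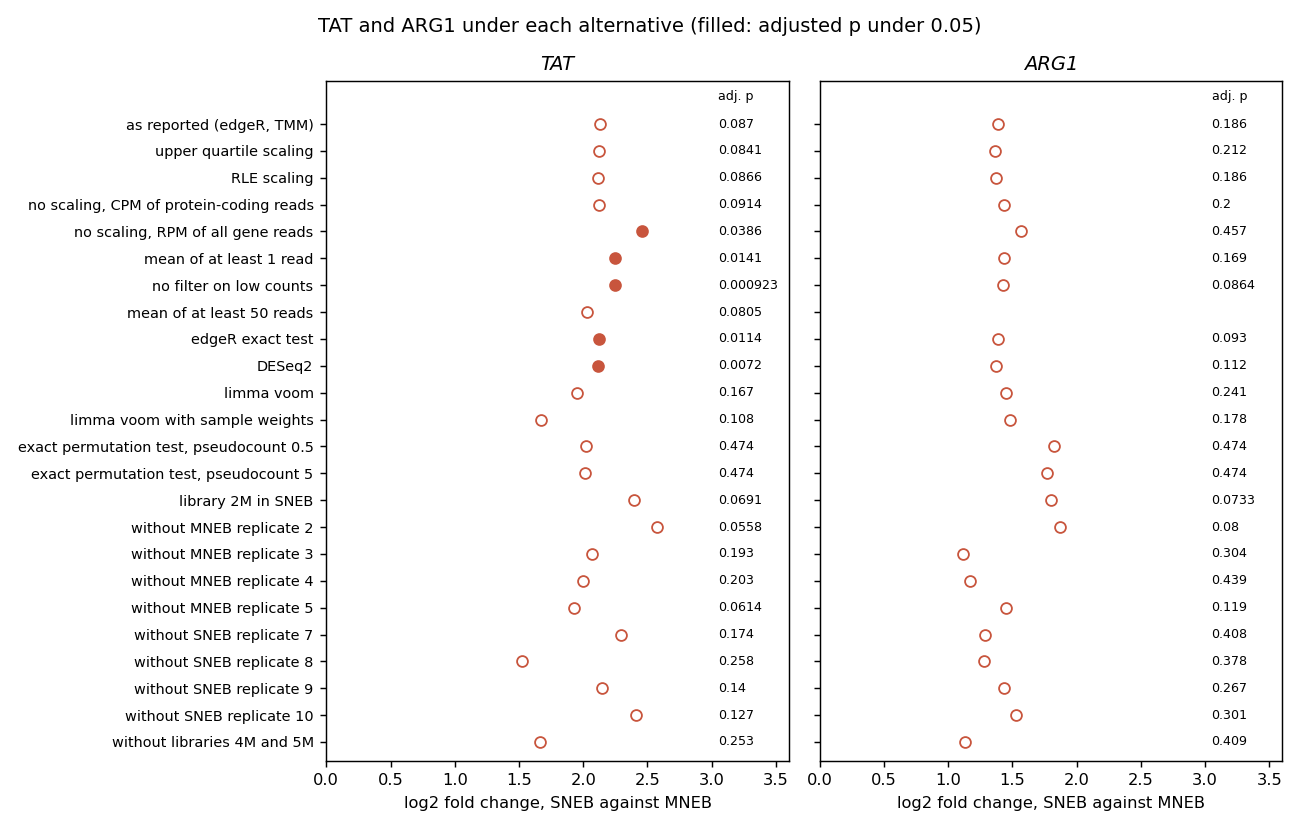
For TAT (left) and ARG1 (right), the log2 fold change of SNEB against MNEB is plotted for the reported fit and each alternative, with the adjusted p at the right edge. Filled points have an adjusted p under 0.05. All points lie above 0, from 1.52 to 2.57 for TAT and from 1.11 to 1.87 for ARG1, and the filled points are the 5 of TAT.

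As RPM, scaled in the same way to all gene reads of the library, of which protein-coding genes are under 1%, TAT stood at 0.910 to 4.38 in MNEB and 5.12 to 34.6 in SNEB. ARG1 stood at 0.0650 to 1.35 RPM in MNEB and 1.69 to 3.75 RPM in SNEB. On this scale neither overlapped, as was the case in that direction for 3.06% of the genes tested. The scale moved the median log2 fold change of all genes by 0.14, and it turned the calls over all genes from 2 higher and 1 lower to 10 higher and 43 lower.

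HPD (ENSBTAG00000004175), which takes the step after TAT in tyrosine breakdown, was close to even between the groups. It stood at 942, 645, 341 and 879.6 CPM in 2M, 3M, 4M and 5M, and at 967, 757, 316 and 634 in 7S, 8S, 9S and 10S. The groups spanned nearly the same range, with the lowest values in 4M and 9S. The log2 fold change was -0.15 (SE 0.40, adjusted p = 0.915 in edgeR's quasi-likelihood test) and the 95% interval of the fold ran from 0.497 to 1.64. The sign turned on the RPM of all gene reads (0.13). RefSeq places a lncRNA across HPD.

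TAT reads per HPD read numbered 1.14, 0.737, 1.38 and 0.312 in 2M, 3M, 4M and 5M. In SNEB they numbered 1.82, 6.68, 6.57 and 1.55 in 7S, 8S, 9S and 10S. All SNEB libraries lay above all MNEB libraries. This separation was not particular to HPD. The ratio of TAT to another gene was higher in SNEB without overlap for 32.1% of the 2341 genes with reads in every library needed for it.

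TDO2 (ENSBTAG00000011062), which opens the ring of tryptophan, had 6 to 18 reads per library. It stood at 56.1 to 119 CPM in MNEB and at 48.1 to 107 CPM in SNEB. In SNEB against MNEB this was a log2 fold change of -0.11 (SE 0.43, adjusted p = 0.943 in edgeR's quasi-likelihood test), and the 95% interval of the fold ran from 0.490 to 1.76. A 1.5-fold difference in either direction lies within that interval and was not detectable at these counts.

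SDS (ENSBTAG00000031814), serine dehydratase, had 0, 1, 5 and 0 reads in 2M, 3M, 4M and 5M, and 4, 3, 16 and 2 reads in 7S, 8S, 9S and 10S. It stood at 0 to 23.4 CPM in MNEB and 15.3 to 109.9 CPM in SNEB. Library 9S held 16 of the 25 SNEB reads, and the other SNEB libraries lay near the range of MNEB. By the exact Poisson interval a count of 0 allows up to 42.9 CPM in 2M and 13.1 CPM in 5M. With a mean of 3.88 reads SDS did not enter the test above. With the minimum lowered to a mean of 1 read its log2 fold change was 2.24 (SE 0.92, adjusted p = 0.376 in edgeR's quasi-likelihood test).

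For all 9 genes the CPM ranges of the groups overlapped, as they did not for 7.12% of all genes tested. Summed, the 9 genes took 0.375% to 0.770% of the protein-coding reads in MNEB and 0.620% to 1.23% in SNEB, given without a test. The 5 urea cycle genes summed to 4642 ± 1292 CPM in MNEB and 5616 ± 824 CPM in SNEB. The 4 amino acid breakdown genes summed to 1365 ± 512 CPM in MNEB and 3249.6 ± 1838 CPM in SNEB (SD, n = 4 each). Without TAT, all members together stood at 5435 ± 1557 CPM in MNEB and 6399 ± 972 CPM in SNEB. TAT alone took 4.03% to 13.9% of the members' reads in MNEB and 15.9% to 40.9% in SNEB, while the share of CPS1 was 46.5% to 53.8% and 29.1% to 44.9%. A larger share of TAT lowers the shares of the other genes by construction.

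**Figure D3:**
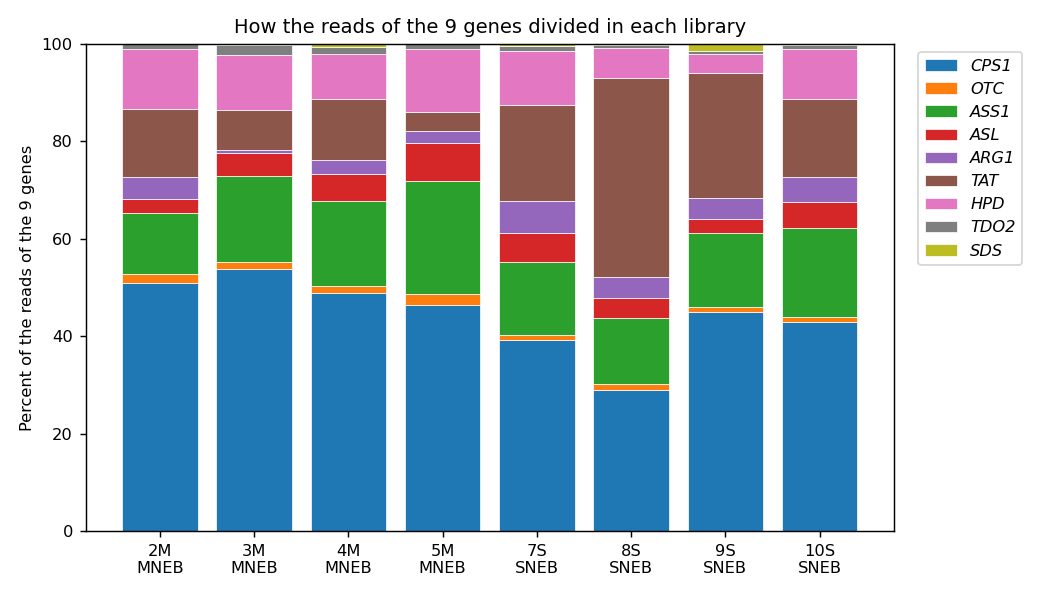
Bars divide the reads of the 9 genes in each library into percent per gene and add up to 100 in every library. TAT takes 4.03% to 13.9% in the MNEB bars and 15.9% to 40.9% in the SNEB bars, and CPS1 is the widest segment of every bar except that of library 8S.

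The pattern of CPS1 across the 8 libraries was set against that of the other 2414 genes tested, by the root mean square difference of log2(CPM + 0.5) after each gene was centred on its own mean. The genes most like it that have a name were CYP3A5 (ENSBTAG00000012201) at 0.18, RPL24 at 0.20, ACAT1 at 0.21 and ADH6 (ENSBTAG00000006991) at 0.21. Closest of all was the unnamed ENSBTAG00000034189, at 0.12. ASS1 stood at place 56 with 0.30 and OTC at place 73 with 0.32. TAT and ARG1 were far from CPS1, at places 2095 and 2119 with 1.15 and 1.17. The distance of ARG1 includes its value in library 3M, which rests on 2 reads.

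Of the other genes of nitrogen and amino acid metabolism, 73 were listed in 9 groups by pathway and 42 passed the filter. Of these 0 passed the test (adjusted p under 0.05 in edgeR's quasi-likelihood test), 8 were higher and 1 lower in SNEB at an unadjusted p under 0.05, against 6.46% and 8.03% of all genes tested. DESeq2 called 2 of them higher in SNEB, HAL and MAT1A, and edgeR's exact test called 1, HAL. Of all genes tested, DESeq2 called 1.24% higher and edgeR's exact test 1.2%. The calls of HAL are a description only, since it reached the filter through SNEB only. The log2 fold change was above 0 for 34 of the 42, with a median of 0.39, while 49.4% of all genes tested were above 0 and their median was -0.01. Of the 42, 4 reached the filter through SNEB only, HAL among them, and 1 through MNEB only, so their direction was partly set by the filter. Over the 37 that reached it in both groups 30 lay above 0 and the median was 0.36. Of all genes tested, 995 of the 1934 that reached it in both groups lay above 0, with a median of 0.02. An unadjusted p under 0.05 was seen for 5 of the 37 higher and 1 lower in SNEB, against 108 and 89 of the 1934. The lists were chosen with earlier results of these data known, so these counts are a description only. The CPM ranges of the groups did not overlap for 8 of the 42 that were higher and 1 that was lower in SNEB, against 4.72% and 2.4% of all genes tested. The 8 include HAL, so this count was partly set by the filter, and it was not repeated over the 37.

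Histidine breakdown held the largest fold change among these genes. HAL, which removes ammonia from histidine, stood at 17.8 to 34.9 CPM in MNEB and 82.4 to 256 CPM in SNEB, with 2 to 7 reads per MNEB library. It reached the filter only through SNEB, with a mean of 4.25 reads in MNEB and 22.2 in SNEB, and fell below it without library 8S. Its fold change of 4.78 did not pass edgeR's quasi-likelihood test and is given as a description only. AMDHD1, which acts further down the path, stood at 112 to 153 CPM in MNEB and 171 to 481 CPM in SNEB, with a fold change of 2.58 (adjusted p = 0.125 in edgeR's quasi-likelihood test). UROC1, which takes the step between them, overlapped between the groups with a log2 fold change of 0.16 (adjusted p = 0.912). The 4 genes tested, HAL included, had a median log2 fold change of 0.97, which was thus partly set by the filter.

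In phenylalanine and tyrosine breakdown, HGD, downstream of HPD, stood at 325 ± 125 CPM in MNEB and 339.6 ± 50.2 CPM in SNEB (SD, n = 4 each), with a log2 fold change of -0.01 whose sign turned on the RPM of all gene reads (0.19). The median of the 5 genes tested was 0.04.

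In methionine metabolism MAT1A, which makes S-adenosylmethionine, stood at 420.2 to 698 CPM in MNEB and 948 to 1268 CPM in SNEB, 2.13-fold higher (adjusted p = 0.126 in edgeR's quasi-likelihood test, 0.0361 with DESeq2). AHCY, which clears its by-product, differed little, with a log2 fold change of 0.04. In tryptophan breakdown downstream of TDO2, ACMSD stood at 50.9 to 69.8 CPM in MNEB and 94.2 to 185 CPM in SNEB (log2 fold change 1.00, adjusted p = 0.258), on 3 to 27 reads per library. HAAO, one step before it, had a log2 fold change of 0.28 (adjusted p = 0.788). The median log2 fold change was 0.54 over the 4 genes tested of methionine and cysteine metabolism and 1.00 over the 3 of tryptophan breakdown. At an unadjusted p under 0.05, 1 and 2 of these genes were higher in SNEB, where 6.46% of all genes tested were higher. The tryptophan gene counted beside ACMSD reached the filter on mean reads through SNEB only. The median and count of tryptophan breakdown were therefore partly set by the filter.

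Among enzymes that release or bind ammonia, GLS2, the liver glutaminase, stood at 60.8 to 110.4 CPM in MNEB and 129 to 389 CPM in SNEB (fold change 2.40, adjusted p = 0.185 in edgeR's quasi-likelihood test). GLUD1, glutamate dehydrogenase, and GOT2, an aspartate aminotransferase, had log2 fold changes of -0.02 and -0.35. The ornithine carrier SLC25A15 and the arginine transporter SLC7A2 stood at -0.67 (adjusted p = 0.612) and 0.25 (adjusted p = 0.862), and both overlapped between the groups. The median was -0.02 over the 5 ammonia genes tested and 0.18 over the 3 tested of the urea cycle carriers and their activator.

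The groups for serine, glycine and threonine (6 tested, median log2 fold change 0.55), proline and lysine (4 tested, 0.43) and branched-chain amino acids (8 tested, 0.37) held 0 genes past the threshold in edgeR's quasi-likelihood test. At an unadjusted p under 0.05 they held 1 gene, higher in SNEB, where 6.46% of all genes tested were higher. It was ALDH6A1 of valine breakdown, at 178 to 299 CPM in MNEB and 343 to 523 CPM in SNEB (adjusted p = 0.270 in edgeR's quasi-likelihood test). SHMT1, SHMT2 and DMGDH of the first group had log2 fold changes of 0.53, 0.72 and 0.38. Those of PRODH, ALDH4A1 and GCDH in the second were 0.30, 0.62 and 0.53, and that of MUT, methylmalonyl-CoA mutase, in the third was 0.39.

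**Figure D4:**
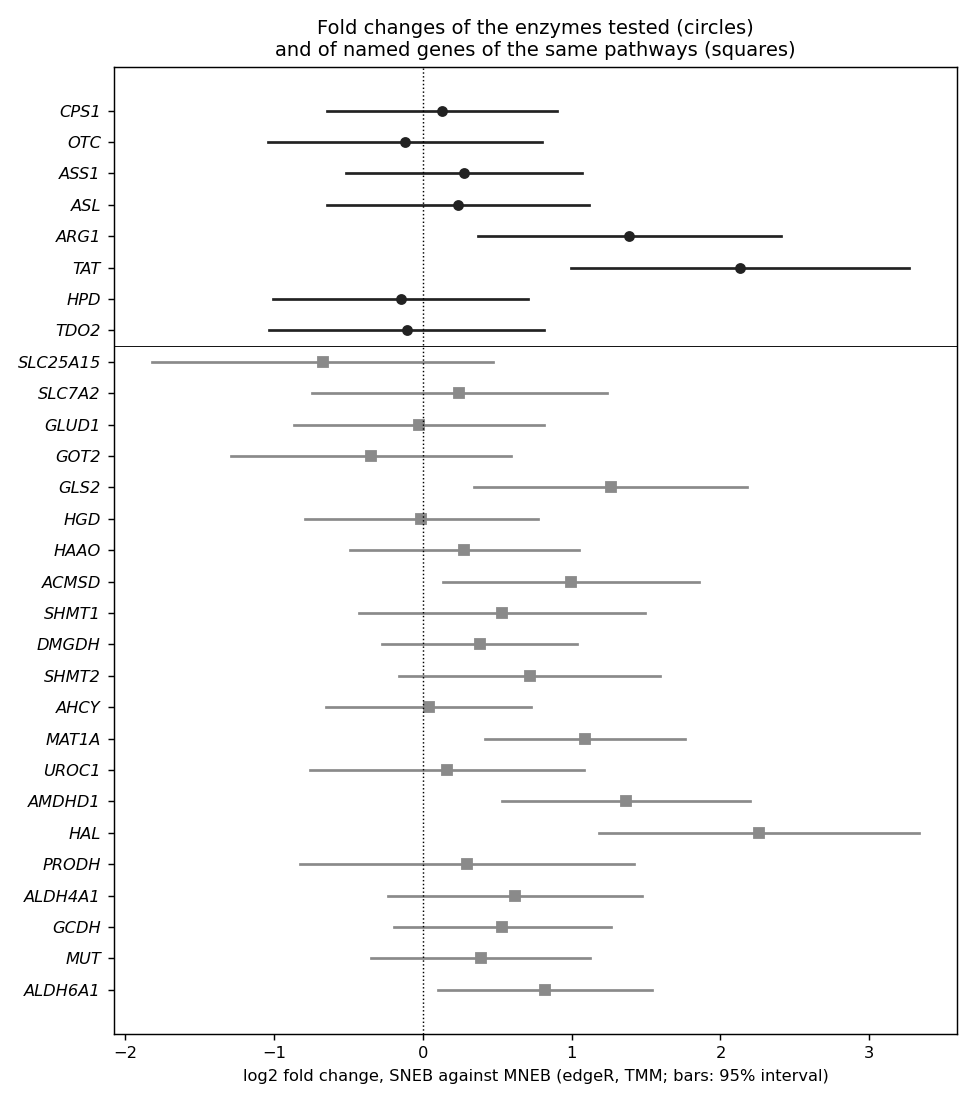
Points give the log2 fold change of SNEB against MNEB from edgeR's quasi-likelihood test and bars its 95% interval, for the 8 members tested (black circles) and the named genes of the same pathways (grey squares). The intervals of ARG1 (0.37 to 2.41) and TAT (1.00 to 3.27) lie above 0 without adjustment for the number of genes tested, and those of the other 6 members include 0.

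Urea cycle enzymes are periportal in the liver lobule of the mouse, while another set of genes marks pericentral hepatocytes there. Of 9 such genes 5 were tested and 0 passed. The median log2 fold change was -0.16, with 2 genes above 0 and 3 below. TBX3 and SLC1A2 lay above 0, at 0.15 and 0.13. Of those below 0, CYP2E1 stood at 1340.4 ± 415 CPM in MNEB and 986 ± 296 CPM in SNEB, and CYP1A2 at 1961 ± 888 and 1401 ± 193 CPM (SD, n = 4 each). Both overlapped between the groups.

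Of the markers of other cells 0 passed the test, and those of Kupffer cells and macrophages had the lowest median of the lists with more than 1 gene tested. The 9 markers of Kupffer cells and macrophages summed to 1046, 3736, 16175 and 1282 CPM in 2M, 3M, 4M and 5M, against 358 to 899.9 CPM in SNEB. All 7 that were tested lay below 0, with a median log2 fold change of -3.21 and 0 past the threshold. At an unadjusted p under 0.05 all 7 were lower, where 8.03% of all genes tested were lower. The exact test of edgeR called 6 lower and DESeq2 5, against 38 and 43 of the 2415 genes tested. On RPM, with a minimum mean of 1 read and without library 5M, 7 of the 9 markers were called lower each time. Of all genes, 43 of 2415, 61 of 9644 and 77 of 2253 were called lower there. Leukocyte markers summed to 49.9 to 1131 CPM in MNEB and 49.8 to 219.8 CPM in SNEB, and endothelial markers to 470.1 to 1463 and 240.3 to 857 CPM. PTPRC, the 1 leukocyte marker tested, had a log2 fold change of -2.57 (adjusted p = 0.108 in edgeR's quasi-likelihood test) and was called lower by edgeR's exact test and DESeq2. All 4 endothelial markers tested lay below 0, with a median of -0.73. CDH5 among them stood at 57.0 to 626 CPM in MNEB and 0 to 21.3 CPM in SNEB without overlap (adjusted p = 0.0681 in edgeR's quasi-likelihood test) and was called lower by edgeR's exact test. Of all genes tested, 2.4% were lower in SNEB without overlap. Stellate cell and fibroblast markers summed to 253 to 628 and 433 to 771 CPM, and cholangiocyte markers to 14.0 to 67.9 and 0 to 20.5 CPM. Of the stellate cell markers 2 were tested and both lay above 0. The log2 fold change was 0.23 for COL3A1 and 1.30 for ACTA2 (adjusted p = 0.840 and 0.270 in edgeR's quasi-likelihood test). The red cell markers found in the table, among them HBB and ALAS2, had 0 reads. The part of these other cells in the values of TAT and ARG1 was not tested. Without library 4M, which had the largest Kupffer cell sum, the log2 fold change was 2.00 for TAT and 1.17 for ARG1. Adjusted p was 0.203 and 0.439 in edgeR's quasi-likelihood test. Without 4M and 5M, which leaves 2M and 3M in MNEB, it was 1.67 for TAT (adjusted p = 0.253) and 1.13 for ARG1 (adjusted p = 0.409). The Kupffer cell sum of 5M lay below that of 3M, so leaving out this pair does not separate libraries by Kupffer cell reads.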

How the data were processed

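The authors deposited counts per gene of reads with a unique alignment, from small RNA reads of 8 livers, 1 library per cow. Per the labels and the study's methods, adaptors were trimmed with Cutadapt 1.1, short and low quality reads were removed, FastQC 0.10.0 was run, and reads were aligned to UMD3.1 with Novoalign 2.07.11 in miRNA mode and counted with HTSeq 0.5.3p3 on Ensembl genes. The 3 entries that name no gene were left out, and 0 columns of other samples were found. The strand setting of the counting was not given in the sources used here. One column, 6S, was read as library 8S, whose label gives that column's letter.

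From the counts, CPM were computed on the protein-coding reads. The groups were compared in edgeR 4.0.16 (R 4.3.3) by its quasi-likelihood test, scaled by TMM, over the 2415 protein-coding genes with a mean of at least 10 reads, at an adjusted p of 0.05. Fold changes are unshrunk and their SE follows from the F statistic. Alternatives were other scalings, filters and tests (DESeq2 1.42.0, limma 3.58.1, edgeR's exact test and exact permutation), library 2M in SNEB, and libraries left out. On simulated counts of these 2415 genes with 200 changed, 72.7% of 4-fold and 11.0% of 2-fold changes were recovered and 4.72% of calls were false. The counts were drawn independently for each gene from the model of the test, with the dispersions fitted here. Shifts that many genes of a library share were not simulated, so these shares need not hold for the real libraries. Counting intervals are exact Poisson at 95%, and a count of 0 allows up to 3.69 reads. They cover counting error only, since PCR copies are counted as reads.

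Members and lists were chosen with earlier results of these data known. Named were the members and, of each pathway list, genes that pass, the 2 with the highest CPM and the 1 with the smallest p. One gene this rule would name is not reported here, though counts and medians over the lists include it. The lists cover urea cycle carriers, ammonia, phenylalanine and tyrosine, tryptophan, serine, glycine and threonine, methionine and cysteine, histidine, proline and lysine, and branched-chain amino acids. Gene overlaps were taken by name from the RefSeq table of ARS-UCD2.0, in which all 9 members were matched.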

Additional observations from a re-analysis of the deposited data

Results flagged for a closer look

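Within groups of 4 libraries, a highest or lowest library was marked where its gap to the next made up most of the range of the group, past the 95% value of Dixon's test. Of 66 groups looked at, 6 were marked, where chance marks about 1 in 20.

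Among the members, CPS1 in library 10S stood at 2664 CPM, below 3468 to 3627 CPM in the other SNEB libraries. SDS in library 9S stood at 110 CPM on 16 reads, above 15.3 to 28.4 CPM in the other SNEB libraries. Among the other pathway genes, AHCY in 9S stood at 1429 CPM, below the other SNEB libraries, and MAT1A in 2M at 698 CPM, above the other MNEB libraries. HAL in 5M stood at 17.8 CPM on 5 reads, below the other MNEB libraries. CYP1A2 in 10S stood at 1688 CPM, above the other SNEB libraries.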

How the results depend on the processing

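The 3 genes called of 2415 became 6 with upper quartile scaling, 53 on RPM of all gene reads, 91 with a mean of at least 1 read, 147 with no filter, 67 with edgeR's exact test, 73 with DESeq2, 10 with limma voom and sample weights, 0 with the exact permutation test at either pseudocount (172 at an unadjusted p under 0.05), 8 with library 2M in SNEB, 13 without libraries 4M and 5M, and 1 to 112 with each library left out. The count was 112 without library 5M, 15 without 2M and 1 without 7S. In the permutation test no gene could pass, since its smallest adjusted p was 0.401. Members called numbered 0 in the reported test and 1, TAT, on RPM, with a mean of at least 1 read, with no filter, with edgeR's exact test and with DESeq2, and 0 in all other alternatives, each library left out included. Pathway genes called numbered 1 with a mean of at least 1 read, with no filter and with edgeR's exact test, 2 with DESeq2, and 0 to 1 with each library left out. The causes were not tested.

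The sign turned only for genes with small fold changes. On RPM the log2 fold change was 0.067 for OTC, 0.19 for TDO2, 0.13 for HPD, 0.23 for GLUD1 and 0.19 for HGD. With library 2M in SNEB it was -0.045 for ASL, 0.074 for HPD, 0.49 for GLUD1, 0.15 for GOT2 and -0.067 for AHCY. Without 4M and 5M it was -0.083 for CPS1 and 0.033 for HGD. With limma voom it was 0.11 for TDO2, 0.029 for GLUD1 and 0.11 for HGD, and with sample weights 0.0033 for GLUD1 and 0.12 for HGD. GLUD1 and HGD also turned without scaling (0.016 and 0.065), with a mean of at least 1 read (0.048 and 0.027), with no filter (0.041 and 0.010) and in the permutation fits at both pseudocounts (0.066 and 0.14), and AHCY with a mean of at least 50 reads (-0.10). With each library left out, the log2 fold change ran from -0.10 to 0.25 for CPS1, -0.39 to 0.25 for OTC, -0.30 to 0.075 for TDO2, -0.44 to 0.076 for HPD, -0.090 to 0.51 for SLC7A2, -0.30 to 0.31 for GLUD1, -0.28 to 0.37 for HGD, -0.020 to 0.17 for AHCY, -0.091 to 0.52 for UROC1 and -0.045 to 0.65 for PRODH. TAT and ARG1 kept their direction in every alternative. No paired analysis was possible because the groups share no replicate number. With a mean of at least 50 reads, OTC, ARG1, TDO2 and 14 named pathway genes gave no value, as did TDO2 without 4M and 5M, HAL without 8S, and SDS except under the lowered filters. Few reads limit OTC, TDO2, SDS, HAL, ACMSD and SHMT2 among others.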
